A study of Arabidopsis thaliana with 41 samples.

Results

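Well-watered Ag-0 was compared with the other natural accessions of Arabidopsis thaliana grown beside it. The comparison took the 3 arrays labelled Ag-0 wet and set their mean against the mean of 6 group means, 1 for each of the accessions Ull2-5, Tamm-2, Omo2-3, Got-22, Eden-1 and Bil-5, which had 3 wet arrays each. These are 21 of the 41 arrays at hand, and all 21164 loci of the deposited values table were tested. Every group is an unmodified accession, with no transgene or mutation named, and the RNA came from rosette leaves of plants kept at about 90% of the available soil water. The series as a whole asks how accessions respond to mild soil drying. The other 20 arrays are of plants dried slowly to about 50% of the available water, with 2 arrays for Ag-0 and 3 for each other accession, and they were used here only to measure the same contrast a second time. Replicates are called biological in the series' design text.

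Accessions are inbred lines descended from plants collected at different places. Ag-0 comes from France, and the others from Sweden, Finland and Germany. Such lines differ from the reference strain by single bases, by whole genes that are present or missing, and by gene copies that are silent, and leaf chemistry is among the traits known to vary most: glucosinolates, the sulphur compounds that crucifers use against herbivores, differ in chain length and in the products released when tissue is crushed. Flowering regulators such as FLC, a MADS-box repressor, and defence genes are other known points of difference.

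Values are log2 signals, so that a difference of 1 is a doubling, and each difference below is Ag-0 minus the mean of the other accessions with its standard error (SE). Wet values ran from 3.35 to 14.3 with a median of 5.71. A value under 4.39, the lowest 25% of wet values, is called near the array floor here, where the size of a difference is not exact. Array values hold no read counts, so precision is limited by how many arrays a group has. A probe can read low where an accession's sequence differs from the one the probe was designed on, which cannot be told apart from a low transcript level in these values.

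Each of the 3 wet and 2 dry Ag-0 arrays lay closest to the other Ag-0 arrays, by correlation over the 500 loci that varied most between accessions. The same held for 40 of the 41 arrays. The exception was Bil-5 dry replicate 3, which correlated at 0.37 with Omo2-3 and at 0.21 with its own accession, and Tamm-2 dry replicate 3 correlated at only 0.18 with its own. Among the wet arrays the Bil-5 group was the most uneven: 74 loci spanned over 3 log2 units between its arrays, against 6 in Ag-0 and 3 to 27 in the other accessions. The counts of wet and dry calls are therefore also given without such arrays or without Bil-5. Leaving out both uneven dry arrays moved a dry value printed below past a threshold, across 0 or by over 1.5 times only where that is stated. All 6 floral organ markers and 5 of 10 root markers lay near the floor in Ag-0 and in the mean of the other accessions, and none of either list was called.

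Ag-0 differed from the other accessions at 590 loci, about evenly in both directions. Limma called 300 loci higher (1.42% of those tested) and 290 lower (1.37%) at an adjusted p under 0.05. The median absolute difference of the called loci was 0.69, and 80 were higher and 75 lower by at least 1 log2 unit. The extremes were AT5G26270, higher by 4.51, and the defensin gene PDF1.2A, at -6.19. Over all loci the median difference was -0.00081. The calls lay on all 5 chromosomes, from 87 on chromosome 2 to 155 on chromosome 5, and 0 of 76 mitochondrial and 0 of 3 plastid loci were called. Without Bil-5 the counts were 427 and 447, of which 288 and 273 were among the calls with all accessions. Without Ag-0 replicate 1 they fell to 116 and 104, and without replicate 2 to 145 and 102.

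Ag-0 was neither the most nor the least distinct accession. The same contrast, each accession against its 6 others, called 1467 loci for Eden-1, 1282 for Ull2-5, 786 for Tamm-2, 593 for Got-22, 227 for Omo2-3 and 214 for Bil-5. These contrasts share arrays, so only their counts are set side by side. In single contrasts limma called the fewest loci against Bil-5, with 282, and Omo2-3, with 339, and the most against Eden-1, with 1346, and Ull2-5, with 1260. Got-22 (553) and Tamm-2 (775) lay between. The order at both ends depended on the measure: the median absolute difference over all loci was smaller against Omo2-3 (0.107) than against Bil-5 (0.114), and larger against Ull2-5 (0.141) than against Eden-1 (0.134).

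**Figure D1:**
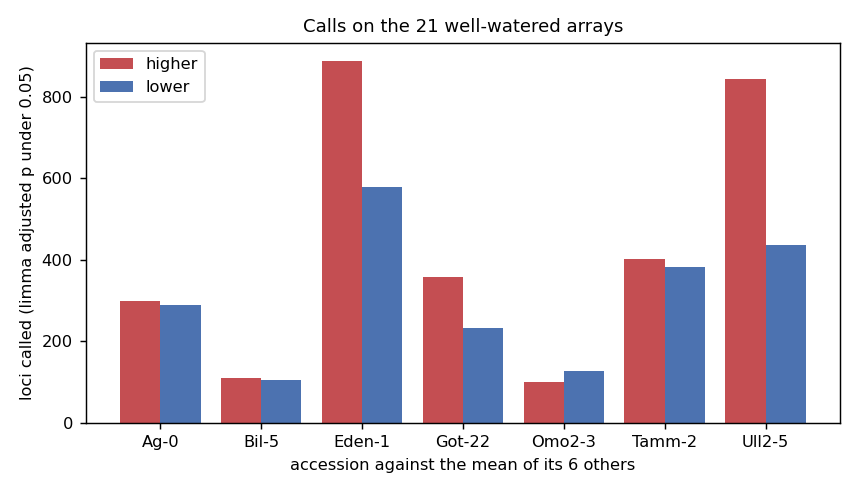
Bars give the number of loci that limma called higher or lower in each accession against the mean of its 6 others on the 21 well-watered arrays; the vertical axis counts loci from 0. Ag-0, with 300 higher and 290 lower, sits between Bil-5 and Omo2-3, with fewer calls, and Eden-1 and Ull2-5, with more.

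Most of the 590 loci passed in single contrasts against some of the accessions rather than against all. A single contrast sets 3 arrays against 3, so 1 that did not pass does not show an equal level. Against any 1 accession only 15 (Omo2-3) to 30 (Tamm-2) of the 590 differed in the opposite direction. Ag-0 had the highest of the 7 means at 260 of the 300 loci called higher and the lowest at 239 of the 290 called lower. In single contrasts with 1 accession, however, only 31 of the higher and 14 of the lower loci passed against all 6, while 44 and 35 passed against 1 and 72 and 99 against 2. The single contrasts with Eden-1 and Ull2-5 passed most often, at 398 and 385 of the 590, and those with Bil-5 least often, at 186.

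A stricter test asked that the largest of the 6 pairwise p-values, adjusted over all loci, be under 0.05 with 1 sign throughout. It was met by 16 loci, 12 higher (0.0567% of those tested) and 4 lower (0.0189%), with a median absolute difference of 1.41. Without single arrays the higher count ranged from 9 to 13 and the lower from 2, without Ag-0 replicate 3, to 4. The loci changed more than the counts did. Without 1 Ag-0 array, 8 or 9 of the 12 higher loci and 2 or 3 of the 4 lower ones passed again. By a rule with no p, 119 loci (0.562%) had all 3 Ag-0 arrays above the 18 others and 101 (0.477%) had all 3 below.

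AT5G26270, a protein-coding gene on chromosome 5 with no symbol in the gene table, was the most distinct of the higher loci. Its Ag-0 arrays read 9.86, 10.73 and 10.81, and the 18 others ran from 5.64 to 6.48 with a median of 5.95. No other accession came within 3 log2 units of Ag-0. The difference was 4.51 ± 0.16 (limma adjusted p = 7.19e-11).

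HR4, a homolog of the RPW8 proteins that give resistance to powdery mildew, stood second. Ag-0 read 11.28, 11.15 and 12.37, against 6.82 to 8.80 in the others, where Omo2-3 was the highest. All 3 Ag-0 arrays lay above every other array, and the difference was 3.95 ± 0.24 (limma adjusted p = 4.54e-08). On AT4G19470, a locus of chromosome 4 with no symbol, Ag-0 read 6.64, 7.11 and 7.16 and the others stayed between 3.94 and 4.40. The other accessions thus lay below the floor level or at its edge, and the difference was 2.82 ± 0.10.

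MAF5, a MADS-box gene of the FLC clade that takes part in flowering time, behaved in the same way. Its Ag-0 arrays read 5.79, 5.71 and 5.94, while the 18 others, all near the floor, lay between 3.72 and 4.33. The groups did not overlap, and the difference was 1.82 ± 0.10 (limma adjusted p = 2.01e-08). MAF4, the gene's neighbour in the same clade, differed by 0.02 and lay near the floor in Ag-0 too; it was chosen after its value was seen.

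PSF1, named as a partner of SLD5 in the GINS complex, part of the replicative DNA helicase, read 8.16, 8.14 and 8.34 in Ag-0. The others ran from 6.17 to 7.54, with Tamm-2 nearest, and the difference was 1.51 ± 0.12 (limma adjusted p = 2.23e-06). The remaining 7 higher loci have no symbol in the table. They were AT5G60610 (1.31), AT2G40980 (1.28), AT4G16710 (1.11), AT2G40316 (1.09), AT1G63110 (1.09), AT4G08800 (0.90) and AT3G62560 (0.85). In the mean of the other accessions AT5G60610 and AT4G08800 lay near the floor, as AT4G19470 and MAF5 did.

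Of the 4 lower loci AT3G62550 showed the widest gap. Its Ag-0 arrays read 7.02, 6.25 and 6.54, and the others between 9.21 and 12.30. Every Ag-0 array lay over 2 log2 units below the lowest of the others, and the difference was -4.26 ± 0.34 (limma adjusted p = 2.24e-06). Its next locus, AT3G62560, is among the 12 higher ones: it read 10.23, 10.13 and 9.92 in Ag-0 and 8.90 to 9.5 elsewhere. Neighbouring loci of chromosome 3 were thus called in opposite directions.

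LUL1, a RING-type ubiquitin ligase of the LOG2 family, read 5.31, 5.87 and 5.54 in Ag-0 and 6.92 to 8.22 in the others, a difference of -1.99 ± 0.14 (limma adjusted p = 3.65e-07). AT1G33970 was lower by a difference of -1.77 ± 0.19 and AT4G13150 by -0.99 ± 0.08. None of the 4 lower loci was near the floor in Ag-0. Whether a lower transcript level or a probe mismatch lies behind them cannot be told apart in these values.

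**Figure D2:**
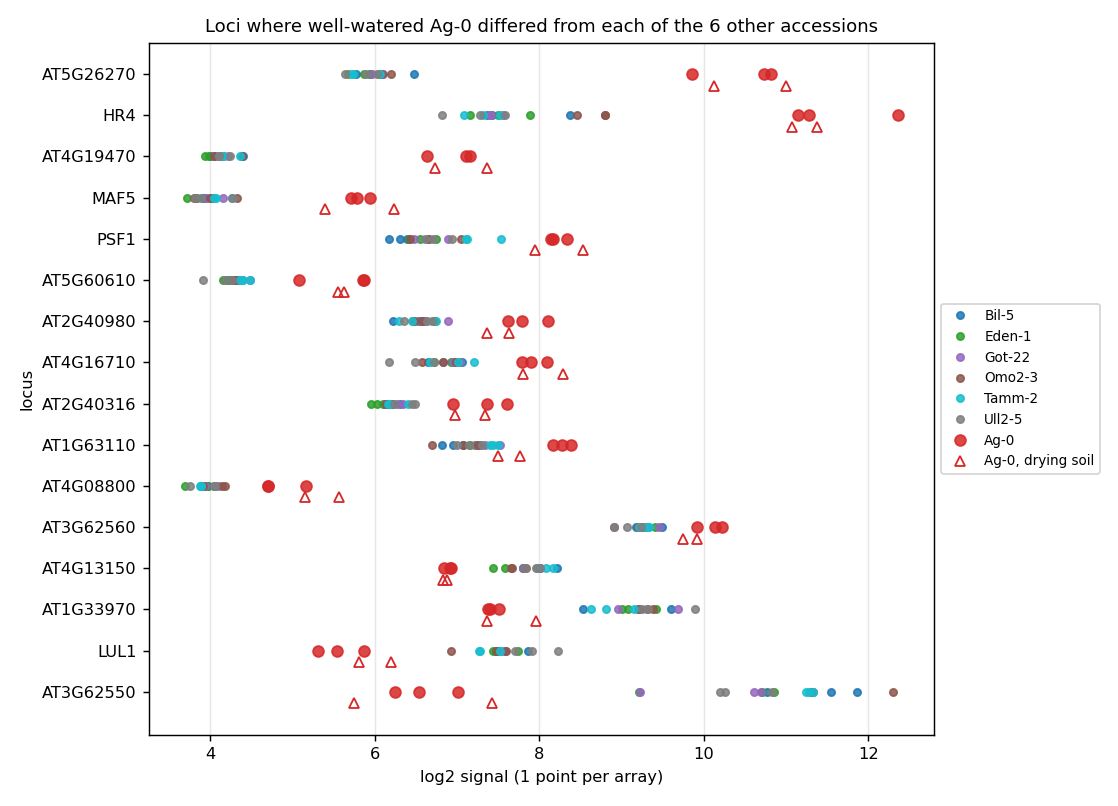
Each row is 1 of the 16 loci where well-watered Ag-0 differed from each of the 6 other accessions, and each filled point is 1 wet array by its log2 signal; open triangles are the 2 Ag-0 arrays from drying soil. The red Ag-0 points lie apart from the 18 others in every row, from 4.51 above (AT5G26270) to 4.26 below (AT3G62550) as differences of means.

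The dried plants gave the same contrast on 20 arrays that the comparison had not used. Of the 16 loci, 16 had the same sign there and 15 were called again by limma. The exception was AT1G63110, at 0.43 (limma adjusted p = 0.0924). AT5G26270 read 11.00 and 10.13 on the dry Ag-0 arrays, against 5.48 to 6.13 in the others. Its dry difference was 4.70. HR4 read 11.37 and 11.07, AT3G62550 read 5.75 and 7.43, and MAF5 read 6.24 and 5.40, with dry differences of 3.62, -4.52 and 1.89. With either single dry Ag-0 array 11 or 12 of the 16 were called, and without Bil-5 dry replicate 3 and Tamm-2 dry replicate 3 it was 15.

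Over all 590 wet calls the dry arrays held the direction less fully. The sign was the same at 490 (83.1%), against 53.1% of the loci not called. Limma called 92 loci higher (0.435%) and 54 lower (0.255%) on dry arrays, and 88 of the wet calls were among them with the same sign, which is 14.9% of the wet and 60.3% of the dry calls. None was called in the opposite direction. Across all loci the 2 differences correlated at r = 0.33, a description over genes that share arrays and are not independent. The dry counts rest on 2 Ag-0 arrays: without replicate 3 limma called 31 higher and 15 lower, and 36 wet calls among them. Without replicate 2 it called 55 and 36, and 43 wet calls. Without the 2 uneven dry arrays (Tamm-2 and Bil-5) it called 136 higher and 83 lower, 113 of them wet calls.

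Whether the Ag-0 difference itself depended on water was tested over all 41 arrays, and limma called 1 locus (0.00473%), with 1646 at an unadjusted p under 0.05. The locus was AT5G25570, which has no symbol. It read 5.38, 4.87 and 4.66 in wet Ag-0 and 4.02 to 4.48 in the other wet accessions, but 4.29 and 4.1 in dry Ag-0. The call ended without the 2 uneven dry arrays, where limma called 0. PDF1.2A and PAD3 had large wet differences and small or uncalled dry ones, but neither was called by this test.

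**Figure D3:**
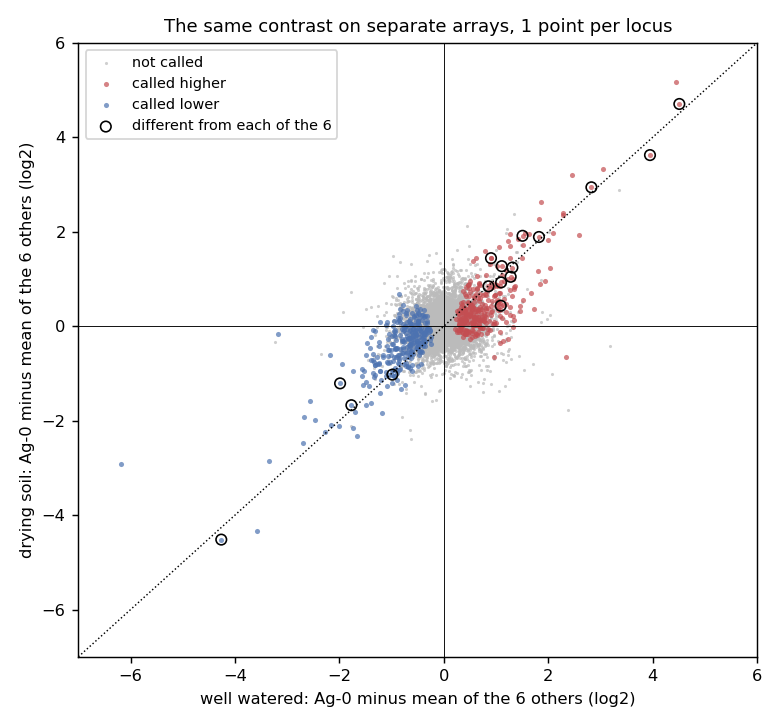
Each point is 1 of 21164 loci, with the Ag-0 difference from the mean of the other 6 on wet arrays along the horizontal axis and on dry arrays along the vertical axis, both in log2 units. Circled loci, the 16 that differed from each accession, lie near the dotted line of equal differences, while many of the other called loci lie closer to 0 on the dry axis.

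Of the genes of glucosinolate breakdown and side chains, ESP, GSL-OH and FMO_GS-OX2 were called higher in Ag-0 and none lower. ESP, the specifier protein that turns released glucosinolates toward nitriles and epithionitriles, read 12.64, 12.62 and 12.55 in Ag-0. It read 5.21, 5.36 and 5.32 in Got-22 and between 11.07 and 12.57 in the others, where Eden-1 overlapped Ag-0. Its difference was 1.99 ± 0.18 (limma adjusted p = 7.37e-06), and 0.92 (limma adjusted p = 0.0189) without Got-22. Much of the difference thus rested on 1 accession, though the call stayed without it. On dry arrays it was 1.83 and again called. ESM1, which favours isothiocyanates instead, went the other way in Got-22, with 11.61 to 12.12 there and 8.63, 8.25 and 8.46 in Ag-0, and its difference from the 6 was 0.30 ± 0.48 (limma adjusted p = 0.845). Without Got-22 it was 1.04 and still not called (limma adjusted p = 0.354), and without Eden-1 it was -0.05.

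GSL-OH, the oxygenase that adds a hydroxyl group to butenyl glucosinolate and so makes progoitrin, read 10.82, 10.59 and 10.61 in Ag-0. Omo2-3 reached 12.11 and Bil-5 ran from 8.15 to 10.05, while Eden-1, Got-22 and Ull2-5 lay between 5.17 and 7.49 and Tamm-2 between 7.0 and 9.12. The difference was 3.05 ± 0.51 (limma adjusted p = 0.00314), and it passed against 4 of the 6 accessions singly. The dry contrast gave 3.32 (limma adjusted p = 0.0229). Ag-0 thus shared its high level with Omo2-3, with means of 10.67 and 10.97. Bil-5 had a mean of 9.17, and its 3 arrays lay below those of Ag-0. FMO_GS-OX2, which oxidises the sulphur of the side chain, was called at 0.38 ± 0.08, but lay near the floor in the other accessions, and the call ended without Ag-0 replicate 1 (limma adjusted p = 0.0951), Ag-0 replicate 2 (0.171) or Eden-1 (0.0537).

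The other side chain loci were not called. MAM1, which elongates the chain, read 10.48, 10.19 and 10.16 in Ag-0 against 6.70 to 11.53 in the others, a difference of 2.02 ± 0.69 (limma adjusted p = 0.14). AOP2, which makes alkenyl glucosinolates, read 9.32, 9.43 and 9.25 against 4.92 to 10.38, a difference of 1.4 ± 0.71 (limma adjusted p = 0.36). Both were even within Ag-0 and ranged widely within other accessions. MAM3 differed by -1.04 ± 0.41 (limma adjusted p = 0.208), and AOP3, at 4.62 to 4.84 in Ag-0, by -0.04 ± 0.07. Of 28 measured genes of aliphatic glucosinolate synthesis 2 were higher and 0 lower, with a median of -0.03. Of 7 measured genes of breakdown 1 was higher and 0 lower, with a median of 0.30. Over all loci 1.42% were called higher and 1.37% lower, so counts this small say little of either list.

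In the defensin branch of jasmonate and ethylene defence, PDF1.2A and PR3 were called lower in Ag-0 and the other 11 measured members were not called. PDF1.2A, an antifungal defensin, read 4.29, 4.1 and 4.25 in Ag-0, near the floor. Tamm-2 read 5.28, 8.57 and 6.71, and the other accessions 8.44 to 13.36. The 3 Ag-0 arrays lay below all 18 others, with a difference of -6.19 ± 0.85 (limma adjusted p = 0.000612), although the test against each accession did not pass because of Tamm-2. On dry arrays, where other accessions also reached down to 3.96, Ag-0 read 3.85 and 4.31 and the difference of -2.93 was not called (limma adjusted p = 0.778). PR3, a basic chitinase, read 5.35, 5.00 and 4.41 in Ag-0 and 4.19 to 5.48 in Got-22 and Tamm-2, against up to 11.28 in Eden-1. Its difference was -2.56 ± 0.53 (limma adjusted p = 0.013), and it lost its call without Eden-1 (-1.84, limma adjusted p = 0.132) and without Ag-0 replicate 1, 2 or 3 (limma adjusted p = 0.0547, 0.0696 and 0.0876). Of 13 measured members 0 were higher and 2 lower, against 1.42% and 1.37% of all loci. Their median was -0.36, and 10 had a difference below 0. The activators ORA59 and ERF1, chosen after their values were seen, differed by 0.18 ± 0.25 and -0.49 ± 0.27 and were not called.

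Among camalexin and indole glucosinolate genes PAD3 and IGMT1 were called lower in Ag-0, CYP81F1 higher, and the other 16 measured members were not called. PAD3, the cytochrome P450 of the last step to the phytoalexin camalexin, read 4.66, 4.84 and 5.59 in Ag-0. Bil-5 replicate 3 and Got-22 replicate 2 overlapped this range, with 4.89 and 5.18, and the highest other array, of Eden-1, read 10.58. The difference was -3.17 ± 0.63 (limma adjusted p = 0.0107), with calls ending without Ag-0 replicate 1 (-2.99, limma adjusted p = 0.0914) or replicate 2 (-3.08, 0.0733). On dry arrays it was -0.18. IGMT1, a methyltransferase of indole glucosinolates, lay near the floor in Ag-0 at 3.93, 3.73 and 4.15, with Tamm-2 and Ull2-5 the highest, between 7.33 and 8.63. Its difference of -2.18 ± 0.50 (limma adjusted p = 0.0274) ended as a call without any 1 Ag-0 array (limma adjusted p = 0.0811 to 0.14), without Tamm-2 (0.0935) and without Ull2-5 (0.1). CYP81F1, which hydroxylates indole glucosinolates, was higher instead, at 0.78 ± 0.14 (limma adjusted p = 0.00475; 0.0629 without Ag-0 replicate 2). Of 19 measured members 1 was higher and 2 lower, against 1.42% and 1.37% of all loci, and 16 had a difference below 0, against 10643 of 21164 over the whole array. The list median was -0.40 on wet arrays and -0.02 on dry ones (0.02 without both uneven dry arrays). Averaged over the list, the Ag-0 arrays read 6.77, 6.79 and 6.81, and the others between 6.72 and 8.25.

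**Figure D4:**
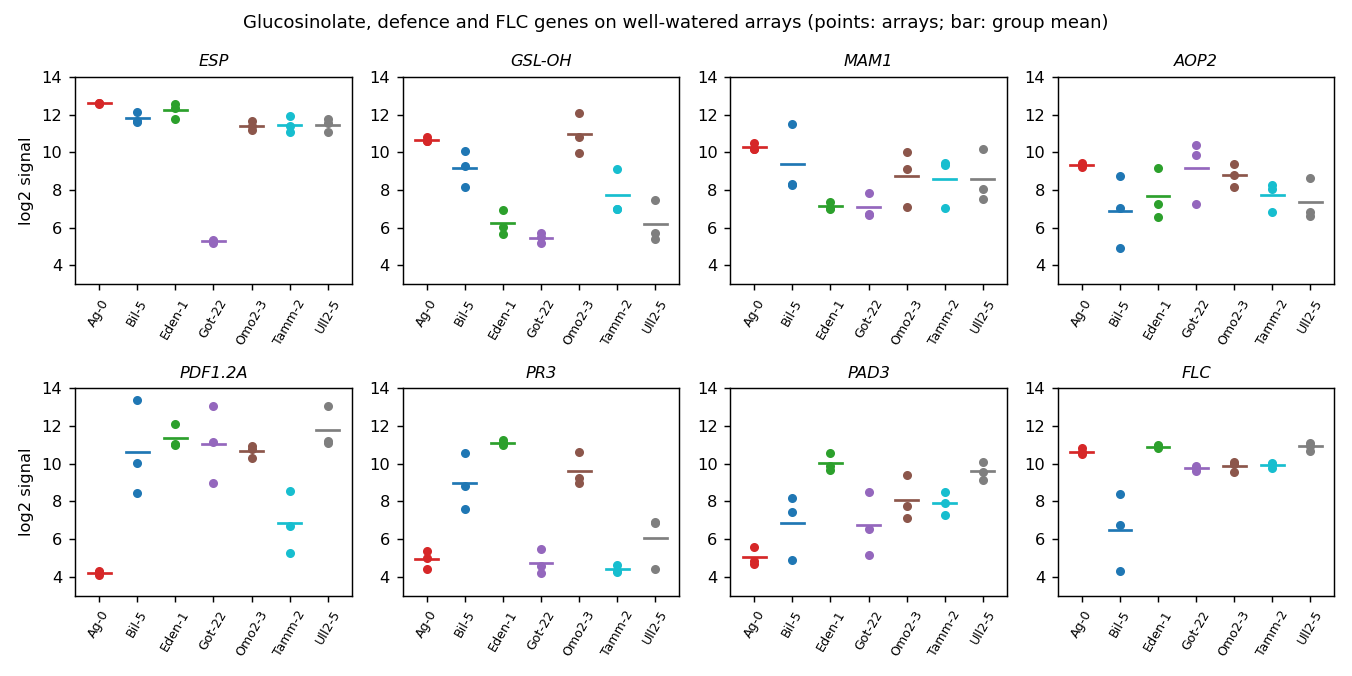
Log2 signal of 8 genes on the well-watered arrays, with 1 point per array, a bar at each group mean and the 7 accessions along the horizontal axis of every panel. Ag-0 reads 12.61 on average for ESP, where Got-22 is low, and 4.21 for PDF1.2A, below every other array, while FLC is low only in Bil-5, whose 3 arrays are far apart.

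Of 28 measured salicylic acid and systemic defence genes 0 were called higher and 1 lower, against 1.42% and 1.37% of all loci. A difference below 0 was found for 25 of them, against 10643 of 21164 loci over the whole array. The list median was -0.40 on wet arrays and -0.09 on dry ones (-0.19 without both uneven dry arrays). The called member was CBP60G, a transcription factor that drives salicylic acid synthesis, with 7.22, 6.92 and 7.30 in Ag-0 and 7.20 to 9.86 in the others. Its difference was -1.27 ± 0.31 (limma adjusted p = 0.0359), and the call ended without any 1 Ag-0 array (limma adjusted p = 0.0919 to 0.183), without Eden-1 (0.138) or Ull2-5 (0.062), and without Eden-1 replicate 2 or 3 or Ull2-5 replicate 2 (0.0503 to 0.053). PR1, the marker gene of this response, read 8.25, 11.55 and 9.42 in Ag-0, a range of over 3 log2 units, and differed by -1.28 ± 0.79 (limma adjusted p = 0.481). Averaged over the list Ag-0 read 7.46, with Bil-5 lower at 7.13 and Eden-1 highest at 9.0, so Ag-0 was not the lowest accession. The Ag-0 arrays read 7.11, 7.48 and 7.80, within the range of the other arrays (6.70 to 9.23). The members share these arrays and are not independent, so the count of signs is a description only.

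Among 31 measured immune receptors and their partners 0 were higher and 1 lower, against 1.42% and 1.37% of all loci. RIN4, a membrane protein that several receptors guard, read 8.36, 8.35 and 8.35 in Ag-0 and 8.37 to 10.28 in the others, with Ull2-5 the highest. The difference was -0.87 ± 0.14 (limma adjusted p = 0.00277), and on dry arrays it was -0.79 without a call (limma adjusted p = 0.195), or -0.86 with one (0.0376) when both uneven dry arrays were left out. The lowest other array lay only just above Ag-0, so the groups were barely apart. ACD6, a locus known for natural variants in defence, differed by 0.25 ± 0.38 (limma adjusted p = 0.832). AT3G43740, chosen after its values were seen and without a symbol, is a locus on or off between accessions: Ag-0 read 3.86, 3.95 and 3.95 and Got-22 4.0 to 4.69, while Eden-1, Omo2-3, Tamm-2 and Ull2-5 lay between 7.80 and 8.52. The Bil-5 arrays spread over both states, at 4.0, 6.80 and 8.58.

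Of 28 measured flowering time genes 3 were higher and 1 lower, with a median of -0.02, where 1.42% and 1.37% of all loci were called. Beside MAF5 these were AGL24, a promoter of flowering, at 0.95 ± 0.21 (limma adjusted p = 0.0238), and FCA, of the autonomous pathway that lowers FLC, at 0.53 ± 0.13 (limma adjusted p = 0.033). The lower one was FRL1, a relative of FRIGIDA that FLC activation needs, at -0.30 ± 0.08 (limma adjusted p = 0.0497). AGL24, FCA and FRL1 are weak calls. AGL24 lost its call without Ag-0 replicate 1 (0.92, limma adjusted p = 0.131) or 2 (0.72, 0.198), without Tamm-2 (0.0692) and without Ull2-5 (0.0527). FCA lost it without any 1 Ag-0 array (limma adjusted p = 0.0914 to 0.163), without Eden-1 (just above 0.05), Got-22 (0.063) or Omo2-3 (0.0558), and FRL1 lost it in 25 of 35 alternative settings, with limma adjusted p up to 0.19, without Ag-0 replicate 3.

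FLC itself was high in Ag-0, with 10.51, 10.82 and 10.62, but also in 5 of the 6 others. Only Bil-5 was low, and its arrays read 4.28, 6.73 and 8.39. The difference was 1.0 ± 0.46 (limma adjusted p = 0.301), and 0.37 (0.0764) without Bil-5; without Bil-5 replicate 3 alone it was 1.16 and just called (0.0498). FRI, which raises FLC, read 4.43, 4.58 and 4.40 in Ag-0 and differed by -0.07 ± 0.07. The florigen gene FT lay near the floor in Ag-0 and in the mean of the others, with a difference of 0.02 ± 0.06.

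Of 39 measured genes of photosynthesis encoded in the nucleus 0 were called, while 38 had a difference above 0, against 10521 of 21164 loci over the whole array. The median was 0.19 and the members lay between -0.05 and 0.67. Averaged over the list the Ag-0 arrays read 12.19, 12.12 and 12.35, within the range of the others (11.33 to 12.58), and Omo2-3 and Tamm-2 had higher means. On dry arrays the list median was -0.08.

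Markers of dividing cells had the highest list mean in Ag-0 of the 7 accessions, at 5.72 against 5.43 to 5.58. The Ag-0 arrays read 5.79, 5.77 and 5.59, however, within the range of the other arrays (5.30 to 5.83), and on dry arrays the Ag-0 mean ranked 6 of 7. Of 11 measured members 10 had a difference above 0 and 0 were called, with a median of 0.21. On dry arrays the median was -0.16. In bulk leaf RNA a difference in the share of a cell type and one in the level per cell cannot be told apart. All 10 measured trichome markers had a difference above 0, from 0.01 to 0.43, against 10521 of 21164 loci over the whole array. Averaged over this list the Ag-0 arrays read 4.63, 4.55 and 4.49, and the other arrays between 4.32 and 4.59, so they overlapped. The dry median of the trichome markers was 0.02, and the Ag-0 list mean ranked 5 of 7 there. Of the 10 markers 1 was called higher, against 1.42% of all loci. It was MYB23, a regulator of trichome branching, at 0.38 ± 0.05 (limma adjusted p = 0.000771). Its dry difference of 0.16 was not called (limma adjusted p = 0.908). Its Ag-0 mean was 4.31, near the floor, as were 6 of the 10 members, so the size is not exact. Of 13 guard cell and 6 phloem markers 0 were called, with medians of 0.15 and -0.08.

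Further lists held 1 call or none, against 1.42% higher and 1.37% lower over all loci. CBF1, a factor of cold acclimation, was lower by -0.91 ± 0.23 (limma adjusted p = 0.0444), with 0 higher and 1 lower of 18 cold genes. Its call ended in 19 of 35 alternative settings, with limma adjusted p up to 0.249, without Ag-0 replicate 2. JAZ6, a repressor of jasmonate response, was lower by -0.77 ± 0.19 (limma adjusted p = 0.0358) and the only call of 21 jasmonate genes. It ended in 11 settings, up to 0.208 without Ag-0 replicate 1. Its 3 Ag-0 arrays, at 9.99, 10.23 and 10.19, lay just below the lowest of the others, at 10.26. The median of the 21 jasmonate genes was -0.02 on wet arrays and 0.42 on dry ones. Their Ag-0 mean ranked 5 of 7 accessions on wet arrays and 1 of 7 on dry ones.

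WRKY53, an early regulator of leaf senescence, was lower by -1.22 ± 0.30 (limma adjusted p = 0.0361), 1 of 21 senescence genes. Its call ended in 9 settings, and without Ag-0 replicate 2 the difference was -0.74 (limma adjusted p = 0.302). YSL3, a carrier of metals bound to nicotianamine, was lower by -0.75 ± 0.17 (limma adjusted p = 0.0297), 1 of 36 genes of metal supply. Its call ended without Ag-0 replicate 1 (0.184), replicate 2 (0.174) or Ull2-5 (0.0526). Of 29 genes of starch metabolism 1 was higher, the alpha-amylase AMY3, at 0.66 ± 0.17 (limma adjusted p = 0.0463), which lost its call in 16 settings, with 0.189 at the highest, without Ag-0 replicate 2. Of 21 heat shock genes 1 was higher, the chaperone HSP101, at 0.67 ± 0.14 (limma adjusted p = 0.0157). Its arrays read 5.53, 5.12 and 6.05, and without replicate 3 it did not pass (0.43, limma adjusted p = 0.129), nor without replicate 1 (0.69, 0.0838).

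No member was called among 28 genes of abscisic acid and drought (median -0.13), 20 of the clock (-0.07), 25 of anthocyanin and flavonol synthesis (-0.02), 33 of nitrogen, sulphur and phosphate supply (-0.08) and 25 of wax and cutin (-0.07). COR15A, induced by cold and drought, read 7.51, 7.92 and 5.97 in Ag-0 and differed by -0.32 ± 0.58 (limma adjusted p = 0.868). LTP4, a lipid transfer protein, read 4.86, 5.72 and 4.34 against 4.31 to 9.66 in the others, a difference of -1.79 ± 0.76 (limma adjusted p = 0.247). QQS, an orphan gene that acts on starch content, read 4.98, 5.14 and 6.03. Eden-1 and Tamm-2 were high, with 9.15 to 9.89, and the rest lay between 4.04 and 5.09. Its difference of -0.76 ± 0.21 was not called (limma adjusted p = 0.0589).

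**Figure D5:**
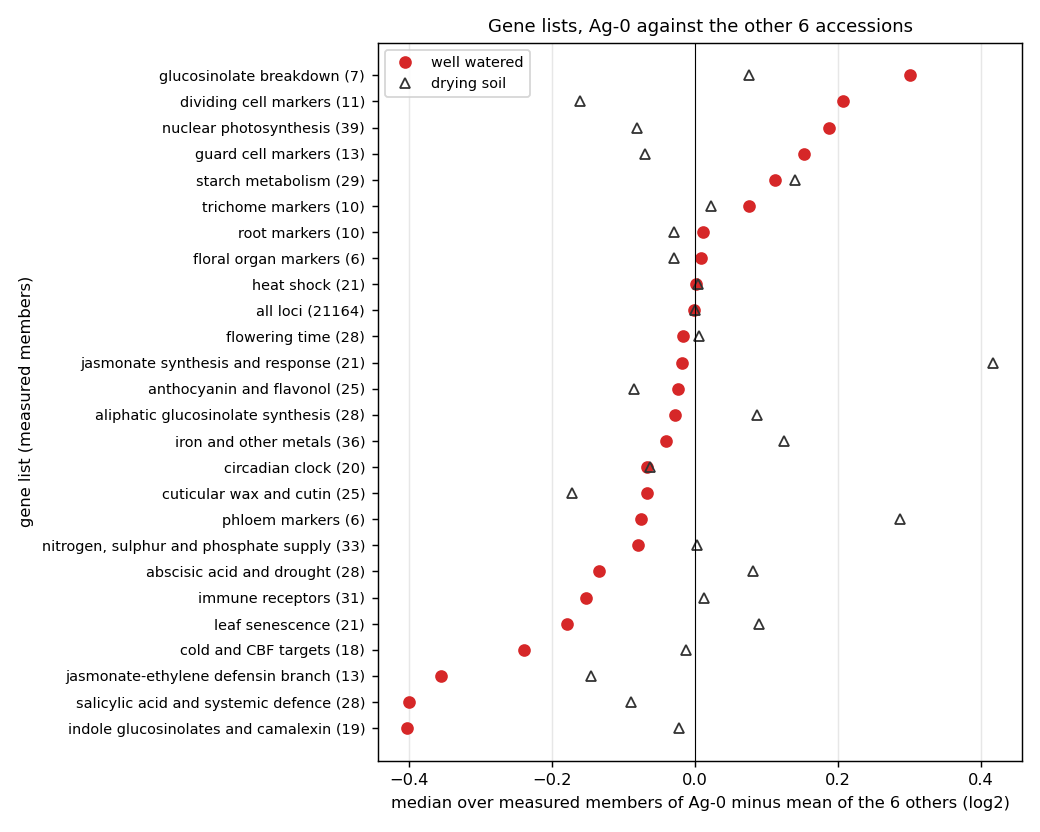
Median Ag-0 difference from the mean of the other 6 for each gene list, in log2 units, on wet arrays (filled circles) and dry arrays (open triangles), with the number of measured members in brackets. Defence lists lie lowest on wet arrays, near -0.40, and glucosinolate breakdown highest, at 0.30, and the dry medians of these lists lie nearer to 0. Jasmonate synthesis and response has the highest dry median, at 0.42, against -0.02 on wet arrays.

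Several loci outside the lists, chosen after their values were seen from the largest differences, showed levels that Ag-0 shares with some accessions. AT2G25510 read 12.64, 13.05 and 13.45 in Ag-0, and Bil-5, Tamm-2 and Ull2-5 were also high, between 11.86 and 13.17. Eden-1, Got-22 and Omo2-3 lay between 4.02 and 5.09. The difference was 4.45 ± 0.19, with 3 of 6 single contrasts passing. AT3G19520 was low in Ag-0, at 4.3, 4.35 and 4.13, and in Eden-1, while the other 5 accessions read 6.90 to 8.45, a difference of -2.69 ± 0.15 (limma adjusted p = 1.76e-08). AT1G65370 was high in Ag-0 (8.64, 8.24 and 8.64), Tamm-2 and Ull2-5, and AT2G32160 in Ag-0 (7.61, 7.91 and 8.37) and Eden-1.

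Others were lower in Ag-0 than in most accessions. ST2A, a sulphotransferase that inactivates hydroxyjasmonate, read 6.30, 5.69 and 4.98 against 6.66 to 10.00, a difference of -2.68 ± 0.30 (limma adjusted p = 7.86e-05). MYB47, a MYB transcription factor, read 4.07, 4.44 and 3.93 against 5.22 to 7.58, a difference of -2.28 ± 0.24 (limma adjusted p = 4.08e-05). For both genes the 3 Ag-0 arrays lay below all 18 others, and all 6 single contrasts passed at the looser rule. The Ag-0 mean of MYB47, 4.15, lay near the floor, so the size is not exact. Neither gene was called on dry arrays, with -1.93 for ST2A (limma adjusted p = 0.184) and -2.24 for MYB47 (0.105). ETP1, an F-box protein of ethylene signalling, differed by -1.73 ± 0.26 and again by -2.16 on dry arrays, where limma called it too (adjusted p = 3.94e-05). SGT1A, a co-chaperone of immune receptors, differed by -1.66 ± 0.33 and by -2.33 on dry arrays (limma adjusted p = 0.000389), although without Ag-0 replicate 1 or 2 its wet call ended (0.0962 and 0.0919).

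Some called loci lie next to each other. Taking measured loci in the order of their locus numbers, 18 runs of 2 or 3 neighbours were called in the same direction, 9 higher and 9 lower. They held 38 of the 590 called loci. How many runs the call rates of 1.42% and 1.37% alone would give was not tested. In 3 of the runs the neighbours had the same value within 0.01 on every array and are not separable. AT2G40960, MYBC1 and AT2G40980, a run of 3 on chromosome 2, were higher by 1.93, 1.27 and 1.28. MYBC1, a MYB-like factor, read 9.43, 9.31 and 9.03 in Ag-0 and 7.10 to 8.77 in the others. Its dry difference of 1.70 was called as well, as was that of AT2G40980 (1.04). AT2G40960 was not called on dry arrays (0.96, limma adjusted p = 0.441). The serine carboxypeptidase-like genes SCPL11 and SCPL13, also on chromosome 2, were higher by 1.87 and 2.03. Dry arrays gave a call for SCPL11, at 2.63, and none for SCPL13, at 1.24 (limma adjusted p = 0.594). SCPL11 was high in Bil-5 and Ull2-5 too, and its wet call ended without Ag-0 replicate 1 (limma adjusted p = 0.0645), replicate 3 (0.0576) or Eden-1 (0.0526). AT1G72900, AT1G72920 and AT1G72940 were lower by a difference of -0.99, -0.63 and -0.93. Signals of similar neighbours such as SCPL11 and SCPL13, of PDF1.2A and its copies, and of the MAF and RPW8 families may be shared between genes, and this was not tested.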

How the data were processed

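Leaf RNA was labelled with biotin as cRNA and hybridised to arrays, per the labels' protocols. The authors deposited 1 table of log2 values per locus and array; the log2 unit was read from the values. The submitters' processing notes list MAS5 and RMA, with neither a role nor a version. Which probes were kept and which genome build was used is not given in the sources used here. No further normalization or filter was applied, and 0 columns belonged to other samples. Symbols came from RefSeq's gene table of assembly TAIR10.1, used for names and neighbours only (20972 of 21164 loci matched, 192 did not). No sequence is printed because none was at hand.

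With R 4.3.3 and limma 3.58.1 (lmFit, then eBayes), 1 mean per accession was fitted to the 21 wet arrays. The shared spread had 14 residual degrees of freedom and a prior of 2.18. P-values are two-sided, with Benjamini-Hochberg adjustment across every locus and a threshold of 0.05. The dry contrast used the 20 dry arrays, and the dependence on water all 41. The scripts were tested on simulated data. Replicate numbers were not taken to pair the arrays, since same-numbered arrays of Ag-0 and of most other accessions did not deviate together throughout.

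The comparison, 25 gene lists (587 entries, 526 measured) and the rule for named genes were chosen with earlier results of these data known. The rule named up to 15 loci each way that passed against each of the 6 accessions, up to 4 called members of each list with the smallest p, and FLC, FRI, FT, ESP, ESM1, AOP2, AOP3, MAM1, MAM3, PDF1.2A, PR1, QQS, LTP4, COR15A and ACD6. Other genes are said to be chosen after their values were seen, and the runs of neighbours were. Alternatives were all arrays in 1 fit, quantile normalization, median centring, array quality weights, a trended robust prior, a filter on the lowest 25% of loci, a replicate block, a fold of at least 1 log2 unit, and leaving out each array or accession. Fits without Bil-5 wet replicate 2 and without Bil-5 and Tamm-2 dry replicate 3 were added after the data were seen.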

Additional observations from a re-analysis of the deposited data

Results flagged for a closer look

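AT5G25570 was the 1 locus whose Ag-0 difference was called as depending on soil water by a test of that dependence itself. It was higher than the mean of the other 6 accessions by 0.73 on wet arrays and differed by -0.04 on dry ones, so that the 2 differences lay 0.77 apart. Wet Ag-0 read 5.38, 4.87 and 4.66, above every other wet array, while the 2 dry Ag-0 arrays, at 4.29 and 4.1, lay near the array floor and within the range of the other dry arrays (4.02 to 4.41). The call ended with array quality weights, with replicate number as a block, and without the uneven dry arrays (Tamm-2 and Bil-5). No cause was tested.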

How the results depend on the processing

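The 300 higher and 290 lower calls became 510 and 506 with array quality weights, and 295 and 287 of the original calls were among them. Leaving out Bil-5 gave 447 lower. Leaving out 1 array gave 116 to 388 higher and 102 to 394 lower, the most without Bil-5 replicate 2, the wet array of lowest quality weight (0.351). Asking for at least 1 log2 unit left 80 and 75 by construction. For loci different from each accession, main counts of 12 and 4, leaving out 1 array gave 9 to 13 and 2 to 4, and the rule of arrays that do not overlap gave 119 and 101. Without 1 Ag-0 array, 8 or 9 of the original 12 and 2 or 3 of the original 4 were kept. On dry arrays (92 and 54) leaving out 1 array gave 31 to 116 higher and 15 to 73 lower, 36 to 105 wet calls called again (88 in the main setting) and 11 to 15 of the 16; without both uneven arrays 83 were lower. The 1 locus depending on water became 0 with the replicate block, with array weights and without both uneven arrays. Apart from settings with fewer samples, the cause was not tested.

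Same-numbered arrays of different accessions deviated together, at r over 0.1, in 26 of 63 pairs (range -0.41 to 0.61). All 3 numbers did so in 3 of 21 pairs of accessions (Omo2-3 with Ull2-5, and Bil-5 with Tamm-2 and with Got-22) and in 0 of the 6 with Ag-0, so the numbers were not taken as pairs. With the replicate block limma called 337 higher and 311 lower, 286 and 265 of them shared with the fit without it, and 13 and 6 against each accession.

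Of 66 named genes that were called, 35 kept their call in all 35 settings and 4 in the 34 that tested them, 27 lost it in at least 1, and 0 changed sign. QQS gained a call in 12 settings and FLC in 1. Medians of the salicylic acid, defensin, camalexin and photosynthesis lists kept their sign under quantile normalization, median centring and without Bil-5, with -0.56 for salicylic acid in the last. List medians were not taken without Eden-1, which had the highest mean on the salicylic acid, defensin and camalexin lists.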

Other observations

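Within Ag-0, 6 loci spanned over 3 log2 units across its 3 wet arrays, and the 3 arrays had quality weights from 0.80 to 1.54. PDF1, a protodermal gene, chosen after its values were seen, read 9.26, 8.67 and 7.24 in Ag-0 and 4.60 to 7.43 in the other wet accessions. Its difference was 2.34 ± 0.57 (limma adjusted p = 0.0349) on wet and -0.66 (limma adjusted p = 0.963) on dry arrays, or -0.40 without the uneven dry arrays of Tamm-2 and Bil-5, and the wet call ended without Ag-0 replicate 1 (0.247) or replicate 2 (0.169) and in 5 further settings (0.0501 to 0.0609).

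DREB26, a transcription factor of the ERF family, also chosen after its values were seen, read 7.21, 6.87 and 6.71 in Ag-0 and 7.78 to 9.68 in the others. Its difference was -1.69 ± 0.27 (limma adjusted p = 0.00235), and the locus numbered just before it, p24delta5, was lower as well, at -0.56. AT4G16920, chosen in the same way, read 3.91, 4.08 and 4.39 in Ag-0, near the array floor, where Bil-5 and Omo2-3 lay too. Eden-1 read 4.42 to 4.63, Got-22 6.71 to 7.53, Ull2-5 7.22 to 8.21 and Tamm-2 9.51 to 10.85.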
